A study of Mus musculus with 6 samples.

Results

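The Wnt ligands, the Frizzled receptors and the secreted Wnt antagonists were examined in whole aortas of atherosclerosis-prone and control mice. Members were all probe sets of the gene chip whose annotated mouse symbol begins with Wnt, Fzd, Sfrp or Dkk followed by a number, or is Frzb or Wif1. This gave 78 of 45101 probe sets, standing for 40 of 18193 gene symbols. There were 19 ligands, 11 receptor symbols, 6 antagonists of the Sfrp, Frzb and Wif1 kind and 4 Dickkopf (Dkk) genes. The pattern also took in Fzd10os, which is a transcript antisense to Fzd10 and encodes no receptor, and neither of its 2 probe sets was bright enough to be tested.

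The first group, vitamin E-treated ApoE-/- mice (VitE), received vitamin E in the diet at 2000 IU per kg for 7 months from an age of 4 to 6 weeks. The second comprised untreated ApoE-/- mice with overt atherosclerosis, and the third comprised non-transgenic B6 mice without treatment. ApoE-/- mice lack apolipoprotein E in every cell and become hypercholesterolemic, and both ApoE-/- groups were on the C57BL/6J (B6) background of the third group. All mice were fed the same basal chow and were 32 to 34 weeks old when the aortas were taken. Each group had 2 gene chips described as biological replicates, each with pooled RNA of 3 aortas, which leaves the variation between individual mice unmeasured. Whole aortas hold many cell types, and fewer cells of a type and less RNA per cell cannot be told apart in them.

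Wnt proteins are secreted, lipid-modified ligands that bind the cysteine-rich domain of Frizzled receptors at the cell surface. With the co-receptors Lrp5 and Lrp6 they stop the degradation of beta-catenin, which then activates target genes with Tcf and Lef factors, while other Wnts act through beta-catenin-independent branches that govern cell polarity and calcium. The Sfrp proteins and Frzb carry a Frizzled-like domain and bind Wnts outside the cell, Wif1 binds Wnts by a domain of its own, and Dickkopf proteins such as Dkk1 block the co-receptors. In arteries the pathway is known for roles in smooth muscle growth, endothelial junctions and calcification.

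The 250 bases before the annotated start of 4 members are shown, because these genes carried the largest difference in the family (Wif1) or differences in all 3 comparisons (Sfrp2, and 1 probe set each of Wnt4 and Fzd4). They are taken from RefSeq on mouse assembly GRCm38.p6 and written 5′ to 3′ with every CG dinucleotide in capitals.
Wif1 (chr10:121033754-121034003, plus strand): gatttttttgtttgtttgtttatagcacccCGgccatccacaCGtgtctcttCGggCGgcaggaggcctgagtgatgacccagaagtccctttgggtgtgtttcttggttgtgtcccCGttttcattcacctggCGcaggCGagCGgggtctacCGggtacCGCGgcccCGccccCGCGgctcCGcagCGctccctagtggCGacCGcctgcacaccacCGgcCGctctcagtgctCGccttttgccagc
Sfrp2 (chr3:83766071-83766320, plus strand): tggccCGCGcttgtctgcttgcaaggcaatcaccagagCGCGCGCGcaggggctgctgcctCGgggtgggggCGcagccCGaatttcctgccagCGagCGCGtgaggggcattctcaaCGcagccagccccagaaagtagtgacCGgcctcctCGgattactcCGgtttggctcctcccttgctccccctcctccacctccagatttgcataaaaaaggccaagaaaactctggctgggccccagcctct
Wnt4 (chr4:137277385-137277634, plus strand): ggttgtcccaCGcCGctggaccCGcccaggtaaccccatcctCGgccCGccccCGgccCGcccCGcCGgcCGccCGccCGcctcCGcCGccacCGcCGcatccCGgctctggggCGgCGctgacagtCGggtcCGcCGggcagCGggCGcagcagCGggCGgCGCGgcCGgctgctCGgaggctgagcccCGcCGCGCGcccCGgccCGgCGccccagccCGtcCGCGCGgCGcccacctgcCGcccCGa
Fzd4 (chr7:89404116-89404365, plus strand): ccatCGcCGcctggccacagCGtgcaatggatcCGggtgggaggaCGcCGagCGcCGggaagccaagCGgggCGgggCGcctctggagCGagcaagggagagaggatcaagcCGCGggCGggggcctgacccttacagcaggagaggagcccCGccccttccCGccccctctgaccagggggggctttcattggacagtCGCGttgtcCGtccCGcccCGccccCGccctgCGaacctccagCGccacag
The counts of CG dinucleotides were 21 for Wif1, 16 for Sfrp2, 44 for Wnt4 and 25 for Fzd4, against a median of 6 over all 32851 promoters of the RefSeq table. The 30 entries used for 27 member genes had a median of 21.5, with a range of 4 to 48. The search for member entries left out a chromosome that the 32851 promoters include, so the 30 may not be all. The letters CTTTGA, the core to which Tcf and Lef factors bind, were searched on both strands and were absent from the 4 stretches shown. They were present in 5 of the 30 member entries (16.7%) and in 13.8% of all promoters. DNA methylation and factor binding were not measured in this study. Dkk3 has no entry in the table.

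Signal intensities are linear and had been scaled per array by the authors, and a level of 1 probe set is not set against that of another. Apoe itself read 40.5 and 45.3 in VitE aortas, 93.2 and 57.4 in untreated ApoE-/- aortas, and 5209 and 5432 in B6 aortas. All 8 smooth muscle markers were tested and none was below 147 on any array. Markers of neighbouring tissues moved with the groups. The summed signal intensity of 7 oesophageal epithelium markers was 28807 to 32123 in VitE, 14693 to 14786 in untreated ApoE-/- and 28471 to 29088 in B6 aortas. That of 8 cardiac muscle markers was 26213 to 28829, 47488 to 48278 and 24954 to 25306 in the same groups. The spiked-in labelling control for dap ranged over 1192 to 1203, 918 to 978 and 3179 to 3203 in these groups, and the vitamin E arrays have separate, later records, so labelling batch and group cannot be told apart.

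Signal intensities under 20 were set to 20 before log2. A probe set was tested if its mean was at least 100 in at least 1 group, and a difference was called at an adjusted p under 0.05 (limma over all 17909 probe sets tested, Benjamini-Hochberg). Of the 78 members, 27 were tested, and they stand for 19 genes. Of these, 20 passed the limit in all 3 groups, 4 in 2 groups, and 3 (Wif1, Frzb and Fzd5) in 1 group only. A total of 17 members of 13 genes was called in at least 1 comparison. The smallest two-sided p that an exact permutation test allows with 2 arrays per group is 0.333, and every adjusted p therefore relies on limma pooling the error over probe sets. Where an array was left out, the remaining array of its group was assumed to vary like the others.

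In VitE against untreated ApoE-/- aortas, 4 members were called higher and 4 lower. These are 14.8% each of the 27 tested, beside 8.52% higher and 6.99% lower among all probe sets tested. The members higher were both probe sets of the ligand gene Wnt4, the ligand gene Wnt7b and 1 probe set of the receptor gene Fzd4. The members lower were both probe sets of Dkk3, the antagonist gene Sfrp2 and the receptor gene Fzd7. The median log2 fold change of the 27 members was -0.20, against 0.00 over all probe sets tested.

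In untreated ApoE-/- against B6 aortas, 6 members were called higher and 6 lower. These are 22.2% each of those tested, close to the 21.7% higher and 19.1% lower among all probe sets tested, so the counts say nothing particular about the family. The median of the members was -0.11, against 0.03 over all probe sets tested. Dkk3 (both probe sets), Wif1, Sfrp2, Fzd7 and 1 probe set of Fzd2 were higher. Wnt4 and Fzd4 (both probe sets of each), Wnt7b and 1 probe set of Sfrp1 were lower.

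In VitE against B6 aortas, 3 members were called higher (11.1%, beside 21.9% of all probe sets tested) and 8 lower (29.6%, beside 19.2%). The members higher were Wif1 and 1 probe set each of Dkk3 and Wnt4. Of the 10 receptor probe sets tested, 5 were lower and none was higher, with Fzd4 lower by both probe sets and Fzd1, Fzd2 and Fzd5 by 1 each. That of Fzd5 had entered the test through its B6 mean alone. The remaining members lower were Sfrp2, Sfrp4 and 1 probe set of Wnt5a. Some markers of the main cells of the vessel wall were lower in this comparison as well. Of 8 vascular smooth muscle markers, 4 were called lower and none higher, with sums of 17090 to 18032 in VitE, 19129 to 19854 in untreated ApoE-/- and 20254 to 20965 in B6 aortas. Of 8 adventitial fibroblast markers, 4 were called lower and none higher, with sums of 13507 to 14519, 14762 to 15991 and 14872 to 14934 in the same groups. Of 8 endothelial markers, 2 were called higher and 2 lower, with sums of 3092 to 3396, 3524 to 3592 and 3284 to 3442. The part of these cells in the receptor differences was not tested. The median of the members was -0.13, against 0.02 over all probe sets tested. The 3 comparisons share arrays, so the calls of a member in them are not independent.

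**Figure D1:**
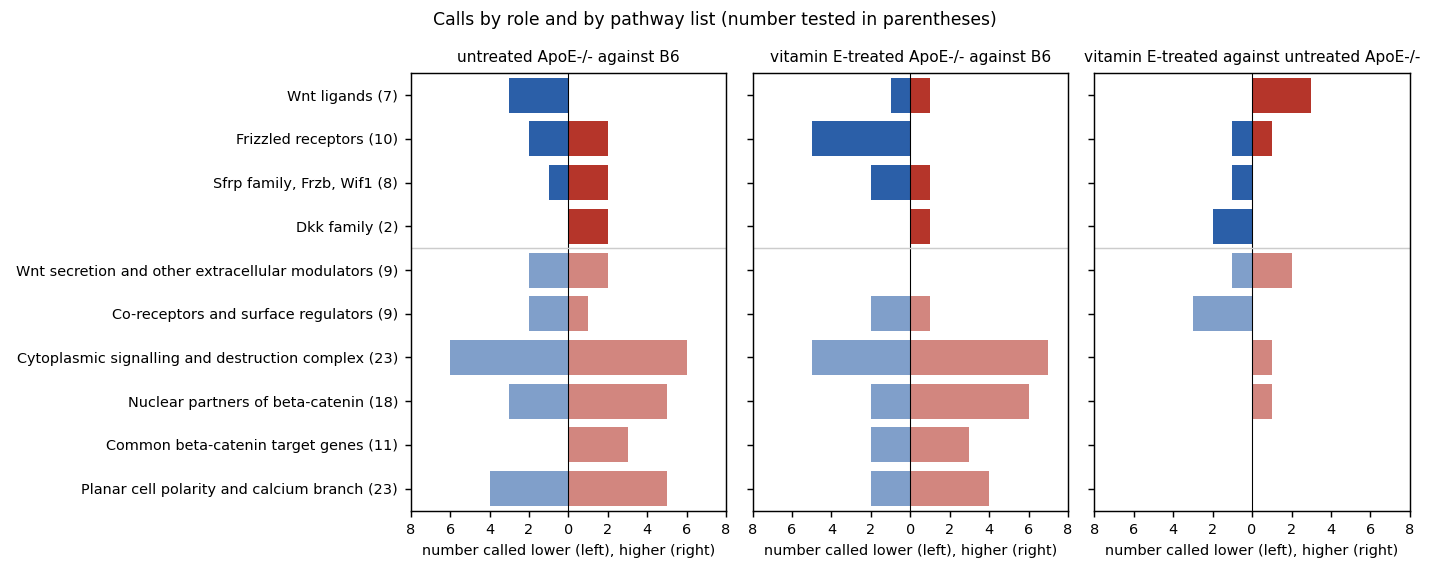
Number of tested features called higher (to the right of 0) and lower (to the left of 0) in each of the 3 comparisons, for the family members by role (probe sets) and for 6 lists of other Wnt pathway genes (1 probe set per gene). Of 7 ligand probe sets tested, 3 of 2 genes (Wnt4 and Wnt7b) were higher and none was lower in VitE against untreated ApoE-/- aortas. Over all probe sets tested, 8.52% were higher and 6.99% lower there. In untreated ApoE-/- against B6 aortas the same 3 were lower and none was higher, beside 21.7% higher and 19.1% lower over all. Both comparisons share the untreated ApoE-/- arrays.

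Among the ligands, Wnt4 is needed for the formation of kidney tubules and the female reproductive tract and is also made by epithelial cells. Its first probe set (1450782_at) gave 301 and 340 in VitE aortas, 180 and 173 in untreated ApoE-/- aortas, and 227 and 243 in B6 aortas. Both treated arrays were highest and both untreated ApoE-/- arrays lowest, without overlap between any of the groups. The signal intensity was 1.82-fold higher in VitE than in untreated ApoE-/- aortas (log2 fold change 0.86, standard error or SE 0.11, limma adjusted p = 0.0030). It was 1.37-fold higher in VitE than in B6 aortas (0.45, SE 0.11, adjusted p = 0.015) and 1.33-fold lower in untreated ApoE-/- aortas than in B6 (-0.41, SE 0.11, adjusted p = 0.020). The 1.82-fold difference kept its call whichever array was left out, and so did no other difference between the 2 ApoE-/- groups in the family. The difference between VitE and B6 was lost without VitE replicate 2 or either B6 array (adjusted p = 0.053 to 0.093), and that between untreated ApoE-/- and B6 when any of the 4 arrays compared was left out (0.066 to 0.12).

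The second Wnt4 probe set (1441687_at) had 167 and 194 in VitE aortas, 115 and 90.9 in untreated ApoE-/- aortas, and 196 and 153 in B6 aortas. Here too the untreated ApoE-/- arrays were lowest, but the treated and the B6 arrays overlapped. It was 1.76-fold higher in VitE than in untreated ApoE-/- aortas (log2 fold change 0.82, SE 0.18, limma adjusted p = 0.025) and 1.70-fold lower in untreated ApoE-/- aortas than in B6 (adjusted p = 0.014). In VitE against B6 aortas, where the first probe set was called, the second had a log2 fold change of 0.06 (95% interval -0.37 to 0.48), and the difference between the probe sets was not tested. Its call between the ApoE-/- groups was lost without either untreated array or VitE replicate 2 (adjusted p = 0.055 to 0.14), and that against B6 without untreated replicate 2 or B6 replicate 1 (0.085 and 0.098).

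Wnt7b, a ligand made by epithelia and needed for lung growth, followed the same order of groups. Its signal intensity was 149 and 143 in VitE aortas, 80.9 and 85.7 in untreated ApoE-/- aortas, and 108 and 118 in B6 aortas. No groups overlapped. It was 1.75-fold higher in VitE than in untreated ApoE-/- aortas (log2 fold change 0.81, SE 0.14, limma adjusted p = 0.011), a call that was lost without either untreated array (0.073 and 0.060). It was 1.36-fold lower in untreated ApoE-/- aortas than in B6 (adjusted p = 0.040, and 0.085 to 0.17 when any of the 4 arrays compared was left out). Against B6, VitE aortas had a log2 fold change of 0.37 that did not pass (adjusted p = 0.075).

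Markers of stratified epithelium moved in the same direction as these ligands. In VitE against untreated ApoE-/- aortas, all 7 tested genes of the oesophageal epithelium list and all 7 of the basal layer list were called higher. In untreated ApoE-/- against B6 aortas, 7 and 5 of them were called lower and none higher. The summed signal intensity of the basal layer markers was 7837 to 7968 in VitE, 4383 to 4513 in untreated ApoE-/- and 6211 to 6234 in B6 aortas, the same order as for Wnt4 and Wnt7b. Skeletal muscle markers kept that order too, with sums of 43762 to 50559 in VitE, 22307 to 22355 in untreated ApoE-/- and 41125 to 41578 in B6 aortas. All 8 of them were called higher in VitE against untreated ApoE-/- aortas and lower in untreated ApoE-/- against B6 aortas, and 3 were called higher in VitE against B6 aortas. The 8 lung epithelium markers were lowest in VitE, with sums of 16804 to 17171 there, 20500 to 21029 in untreated ApoE-/- and 21525 to 22536 in B6 aortas. None of them was called higher and 6 were called lower in VitE against untreated ApoE-/- aortas, while 1 was higher and 4 lower in untreated ApoE-/- against B6 aortas and 1 was higher and 7 lower in VitE against B6 aortas. The part of these cell types in the Wnt4 and Wnt7b differences was not tested. Thymic epithelium markers kept another order, with sums of 3899 to 4035, 2173 to 2186 and 1069 to 1116 in the same groups.

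**Figure D2:**
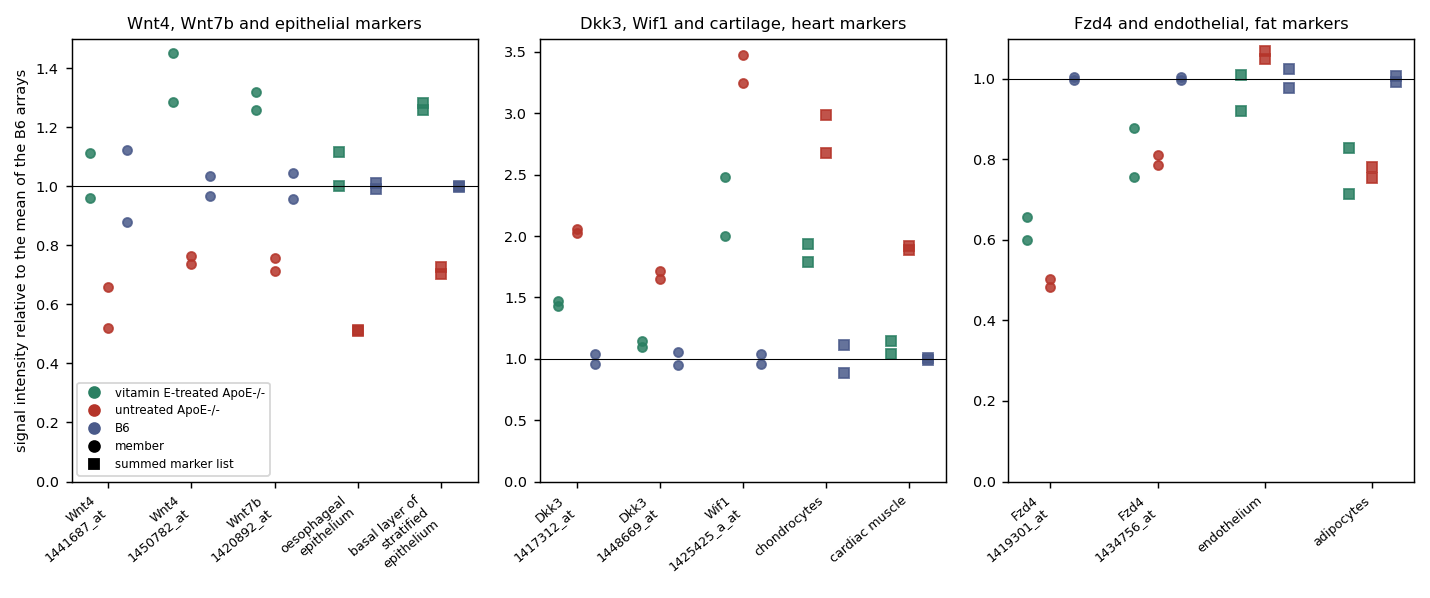
Signal intensity of Wnt4, Wnt7b, Dkk3, Wif1 and Fzd4 probe sets (circles) beside the summed signal intensity of marker lists of other cell types (squares), each relative to its mean in B6 aortas (y axis, starting at 0, line at 1). There is 1 point per array, with the VitE, untreated ApoE-/- and B6 groups from left to right. Wnt4 and Wnt7b were lowest in untreated ApoE-/- aortas, as were the sums of the epithelial lists, and Dkk3 and Wif1 were highest there, as were the sums of the cardiac muscle and chondrocyte lists.

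Wnt5a, the best known ligand of the beta-catenin-independent branch, had 126 and 102 in VitE aortas, 157 and 131 in untreated ApoE-/- aortas, and 172 and 151 in B6 aortas by probe set 1436791_at. The treated arrays were below the B6 arrays, whereas untreated ApoE-/- and B6 arrays overlapped. It was 1.42-fold lower in VitE than in B6 aortas (log2 fold change -0.50, SE 0.17, limma adjusted p = 0.048), a call that was lost when any array but VitE replicate 1 was left out (0.059 to 0.22). The other Wnt5a probe set (1448818_at) had a log2 fold change of -0.20 in this comparison (95% interval -0.49 to 0.10), which did not pass. Wnt11, a ligand of heart and kidney morphogenesis, averaged 147 ± 32 in VitE, 157 ± 30 in untreated ApoE-/- and 136 ± 17 in B6 aortas (SD, n = 2 each). Wnt9a, which takes part in joint formation, averaged 99.1 ± 33.6, 111 ± 7 and 143 ± 14 in the same groups. Neither was called in any comparison.

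The other 14 ligand genes had no tested probe set. Among the 51 untested members, group means lay between 0.775 and 98.98 with a median of 19.3, and 14 members were below 20 on every array. Without a limit on signal intensity, 1 of the 51 was called, a probe set of Wnt8b (1441316_at), a ligand known from the developing forebrain. It had 32.2 and 30.0 in VitE aortas, 42.6 and 54.8 in untreated ApoE-/- aortas, and 8.38 and 14.0 in B6 aortas. Both B6 arrays were thus below 20, which gave at least a 2.42-fold higher signal intensity in untreated ApoE-/- aortas than in B6 against a B6 level of 20 (limma adjusted p = 0.024). Setting both B6 arrays to 20 also left no spread between them, so this adjusted p takes no account of their measured difference. The other 50 were not called. An unadjusted limma p under 0.05 was reached by 6 members (Wnt8b included), 3 and 5 in untreated ApoE-/- against B6, VitE against B6 and VitE against untreated ApoE-/- aortas. The share of all probe sets below that p was not counted, so nothing particular to these members is read from the counts. Signal intensities this low have little precision, and a missed call does not show that a ligand is absent.

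Among the receptors, Fzd4 is a receptor for the ligand norrin as well as for Wnts, and it is required for the growth of retinal vessels. Its probe set 1419301_at gave 1130 and 1031 in VitE aortas, 832 and 864 in untreated ApoE-/- aortas, and 1729 and 1716 in B6 aortas. The B6 arrays were highest, the untreated ApoE-/- arrays lowest, and the treated arrays lay between them without overlap. The signal intensity was 2.03-fold lower in untreated ApoE-/- aortas than in B6 (log2 fold change -1.02, SE 0.07, limma adjusted p = 4.8e-05). It was 1.60-fold lower in VitE than in B6 aortas (-0.67, SE 0.07, adjusted p = 0.00035). Both calls held whichever array was left out.

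The difference between the 2 ApoE-/- groups was smaller for this Fzd4 probe set, 1.27-fold higher in VitE aortas (log2 fold change 0.35, SE 0.07, limma adjusted p = 0.016). It was lost without either untreated array (adjusted p = 0.11 and 0.084). The other Fzd4 probe set (1434756_at) had 513 and 596 in VitE aortas, 551 and 533 in untreated ApoE-/- aortas, and 681 and 676 in B6 aortas. By this probe set the ApoE-/- groups overlapped and both lay below B6. It was 1.25-fold lower in untreated ApoE-/- (adjusted p = 0.021) and 1.23-fold lower in VitE aortas (adjusted p = 0.030) than in B6 aortas, and its log2 fold change between the ApoE-/- groups was 0.03 (95% interval -0.17 to 0.23). The Fzd4 probe sets thus gave the same direction against B6 with unlike sizes, and only 1 of them separated the ApoE-/- groups. The 1.25-fold difference was lost when any of the 4 arrays compared was left out (adjusted p = 0.074 to 0.11), and the 1.23-fold difference when any array but VitE replicate 2 was left out (0.053 to 0.13).

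Fzd4 is made by endothelial cells and adipocytes among others. Endothelial markers (8 tested) summed to 3092 to 3396 in VitE, 3524 to 3592 in untreated ApoE-/- and 3284 to 3442 in B6 aortas, and 3 were called higher and 1 lower in untreated ApoE-/- against B6 aortas. The 6 adipocyte markers with a value summed to 32860 to 38104, 34610 to 35913 and 45652 to 46348 in the same groups, and 1 of them was called higher and 4 lower in each ApoE-/- group against B6. Other marker lists had the group order of Fzd4 probe set 1419301_at. The 6 markers of neurons and Schwann cells with a value summed to 4103 to 4310 in VitE, 3335 to 3391 in untreated ApoE-/- and 8303 to 8647 in B6 aortas. All 6 were called lower in each ApoE-/- group against B6, and 4 were called higher in VitE against untreated ApoE-/- aortas. The 8 liver markers summed to 2218 to 2228, 1168 to 1200 and 22199 to 22568 in the same groups, with all 8 called lower in each ApoE-/- group against B6 and 7 higher in VitE against untreated ApoE-/- aortas. The part of these markers in the Fzd4 differences was not tested.

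Fzd7, a receptor of the same subfamily as Fzd1 and Fzd2, gave 314 and 368 in VitE aortas, 443 and 472 in untreated ApoE-/- aortas, and 350 and 361 in B6 aortas. The untreated ApoE-/- arrays were highest, and the treated arrays lay on either side of the B6 arrays. It was 1.35-fold lower in VitE than in untreated ApoE-/- aortas (log2 fold change -0.43, SE 0.10, limma adjusted p = 0.030). It was 1.29-fold higher in untreated ApoE-/- aortas than in B6 (0.36, SE 0.10, adjusted p = 0.024). The call between the ApoE-/- groups was lost when any array but VitE replicate 2 was left out (adjusted p = 0.061 to 0.17), and that against B6 when any of the 4 arrays compared was left out (0.066 to 0.13).

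The 3 Fzd2 probe sets did not give a single picture. Probe set 1418532_at had 102 and 151 in VitE aortas, 199 and 208 in untreated ApoE-/- aortas, and 142 and 115 in B6 aortas. By this probe set the untreated ApoE-/- arrays were highest, with a 1.59-fold higher signal intensity than in B6 aortas (log2 fold change 0.67, SE 0.20, limma adjusted p = 0.034, and 0.067 to 0.18 when any of the 4 arrays compared was left out). Probe set 1418534_at had 160 and 169 in VitE aortas, 196 and 212 in untreated ApoE-/- aortas, and 227 and 235 in B6 aortas. Here the B6 arrays were highest and the treated arrays lowest, with a lower signal intensity in VitE than in B6 aortas (log2 fold change -0.49, SE 0.11, adjusted p = 0.011, and 0.054 and 0.069 without either B6 array). In untreated ApoE-/- against B6 aortas it had a log2 fold change of -0.18 (95% interval -0.44 to 0.08), opposite in sign to the first. Probe set 1418533_s_at was not called in any comparison. In VitE against untreated ApoE-/- aortas all 3 had negative log2 fold changes, -0.71, -0.43 and -0.31, and none passed (lowest adjusted p = 0.056).

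Fzd1 had 368 and 412 in VitE aortas, 447 and 523 in untreated ApoE-/- aortas, and 505 and 541 in B6 aortas. The treated arrays were below all others, and it was 1.34-fold lower in VitE than in B6 aortas (log2 fold change -0.42, SE 0.10, limma adjusted p = 0.015, and 0.052 to 0.099 without VitE replicate 1 or either B6 array). Fzd5, a receptor of the same subfamily as Fzd8, had 90.0 and 74.7 in VitE aortas, 99.8 and 86.8 in untreated ApoE-/- aortas, and 128 and 116 in B6 aortas. Its B6 arrays were above all others, and it was 1.49-fold lower in VitE than in B6 aortas (-0.57, SE 0.17, adjusted p = 0.032, and 0.050 to 0.14 without untreated replicate 1, VitE replicate 2 or either B6 array). The Fzd5 probe set entered the test through its mean of 122 in B6 aortas alone, the group it was compared with. Without a filter its call was lost, and a limit on the mean of all 6 arrays left it out. Fzd6, which helps to orient hair follicles, averaged 195 ± 1 in VitE, 164 ± 1 in untreated ApoE-/- and 179 ± 14 in B6 aortas (SD, n = 2 each), and Fzd8 averaged 99.0 ± 3.8, 118 ± 16 and 140 ± 25. Neither was called. Fzd3, Fzd9 and Fzd10 had no tested probe set.

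**Figure D3:**
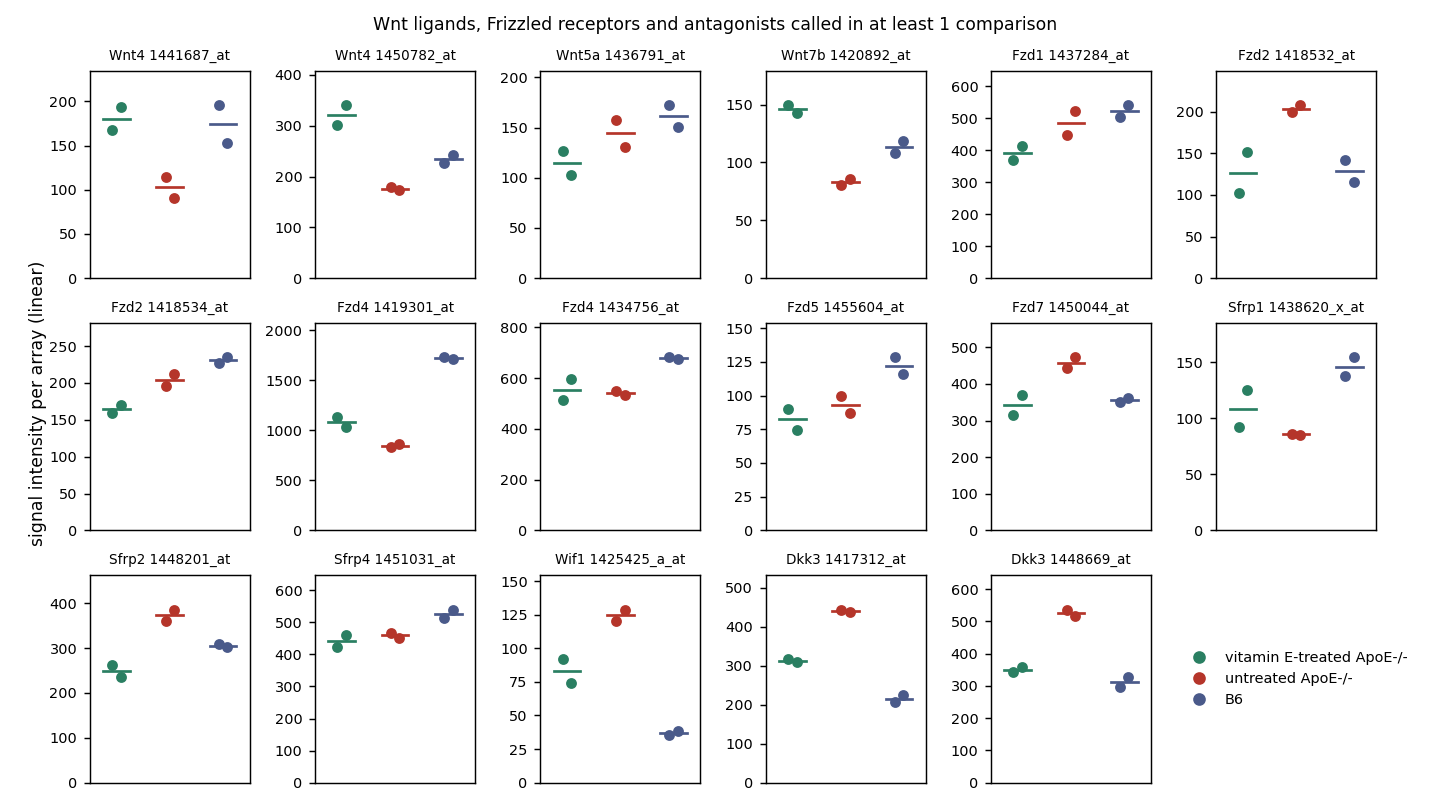
Signal intensity (linear, y axis, starting at 0) of the 17 members called in at least 1 comparison, 1 point per array and 1 line per group mean, with VitE, untreated ApoE-/- and B6 aortas from left to right. Dkk3 and Wif1 were highest in untreated ApoE-/- aortas, whereas Wnt4 and Wnt7b were lowest there.

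Among the antagonists, Wif1 had the largest difference of the family. Wif1 binds Wnts directly and is known from cartilage as well as from other tissues. It gave 92.0 and 74.1 in VitE aortas, 120 and 129 in untreated ApoE-/- aortas, and 35.6 and 38.6 in B6 aortas. The untreated ApoE-/- arrays were highest, the B6 arrays lowest, and no groups overlapped. The signal intensity was 3.36-fold higher in untreated ApoE-/- aortas than in B6 (log2 fold change 1.75, SE 0.19, limma adjusted p = 0.00039) and 2.23-fold higher in VitE than in B6 aortas (1.16, SE 0.19, adjusted p = 0.0026).

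Both Wif1 calls held whichever array was left out. Between the ApoE-/- groups the log2 fold change was -0.59 in VitE aortas, which did not pass (adjusted p = 0.073). The probe set entered the test through its mean of 125 in untreated ApoE-/- aortas alone, and a limit on the mean of all 6 arrays left it out. Chondrocyte markers moved with Wif1. The 8 of that list summed to 598 to 648 in VitE, 896 to 1000.3 in untreated ApoE-/- and 297 to 372 in B6 aortas, and the 2 bright enough to be tested, the cartilage matrix genes Comp and Acan, were called higher in both ApoE-/- groups against B6 and lower in VitE against untreated ApoE-/- aortas. Of the 8, from 1 to 5 were below 20 on single arrays. The part of cartilage-like cells in the Wif1 difference was not tested.

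Sfrp2, a Wnt-binding protein made by fibroblasts, had 262 and 236 in VitE aortas, 360 and 386 in untreated ApoE-/- aortas, and 309 and 302 in B6 aortas. The groups were in 3 separate steps, with untreated ApoE-/- highest and VitE lowest. It was 1.50-fold lower in VitE than in untreated ApoE-/- aortas (log2 fold change -0.58, SE 0.10, limma adjusted p = 0.0090), a call lost without untreated replicate 2 (adjusted p = 0.077). It was 1.23-fold lower in VitE than in B6 aortas (-0.30, SE 0.10, adjusted p = 0.042) and 1.22-fold higher in untreated ApoE-/- aortas than in B6 (0.29, SE 0.10, adjusted p = 0.048). These 2 calls lay near the threshold. The difference between VitE and B6 was lost when any array but VitE replicate 1 was left out (adjusted p = 0.067 to 0.16), and that between untreated ApoE-/- and B6 when any of the 4 arrays compared was left out (0.10 to 0.22). Of the 8 adventitial fibroblast markers, none was called higher and 1 lower in VitE against untreated ApoE-/- aortas, and 2 were called higher and 2 lower in untreated ApoE-/- against B6 aortas, beside the 4 lower in VitE against B6 aortas. The part of fibroblasts in the Sfrp2 differences was not tested.

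Sfrp4, which is known from bone, had 424 and 460 in VitE aortas, 468 and 452 in untreated ApoE-/- aortas, and 515 and 540 in B6 aortas. The B6 arrays were highest and the ApoE-/- groups overlapped. It was 1.19-fold lower in VitE than in B6 aortas (log2 fold change -0.25, SE 0.08, limma adjusted p = 0.037), which was lost when any array but VitE replicate 2 was left out (0.065 to 0.18).

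For Sfrp1, the 3 tested probe sets disagreed. Probe set 1438620_x_at had 92.2 and 125 in VitE aortas, 86.4 and 85.3 in untreated ApoE-/- aortas, and 138 and 154 in B6 aortas. By this probe set untreated ApoE-/- aortas were lowest, 1.70-fold lower than B6 (log2 fold change -0.77, SE 0.18, limma adjusted p = 0.013, and 0.058 to 0.084 without either untreated array or B6 replicate 2). In the same comparison probe set 1428136_at had a log2 fold change of 0.37 (adjusted p = 0.053) and probe set 1448395_at of -0.11 (adjusted p = 0.61). An x in the name of an Affymetrix probe set marks probes that may also bind other transcripts. Frzb, a Wnt-binding protein of cartilage, averaged 78.6 ± 9.3 in VitE, 114 ± 5 in untreated ApoE-/- and 78.5 ± 16.6 in B6 aortas (SD, n = 2 each). Sfrp5, made by adipocytes, averaged 177 ± 8, 204 ± 47 and 151 ± 2. Neither passed in any comparison, and the adjusted p of Frzb was 0.060 in untreated ApoE-/- against B6 aortas.

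Dkk3 is the divergent member of the Dickkopf family, which unlike Dkk1 is not known as a clear blocker of the Wnt co-receptors. Its probe set 1417312_at gave 318 and 308 in VitE aortas, 444 and 437 in untreated ApoE-/- aortas, and 207 and 224 in B6 aortas. Untreated ApoE-/- arrays were highest and B6 arrays lowest, with the treated arrays in between and no overlap. It was 2.04-fold higher in untreated ApoE-/- aortas than in B6 (log2 fold change 1.03, SE 0.09, limma adjusted p = 0.00016) and 1.45-fold higher in VitE than in B6 aortas (0.54, SE 0.09, adjusted p = 0.0031). Both calls held whichever array was left out. It was 1.41-fold lower in VitE than in untreated ApoE-/- aortas (-0.49, SE 0.09, adjusted p = 0.013, and 0.087 and 0.083 without either untreated array).

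The other Dkk3 probe set (1448669_at) had 343 and 357 in VitE aortas, 536 and 515 in untreated ApoE-/- aortas, and 296 and 328 in B6 aortas. It kept the same order of groups, with the untreated ApoE-/- arrays well above the others. It was 1.69-fold higher in untreated ApoE-/- aortas than in B6 (log2 fold change 0.75, SE 0.09, limma adjusted p = 0.00060), whichever array was left out, and 1.50-fold lower in VitE than in untreated ApoE-/- aortas (-0.59, SE 0.09, adjusted p = 0.0060, and 0.056 without untreated replicate 1). In VitE against B6 aortas its log2 fold change was 0.17 (95% interval -0.04 to 0.37), which did not pass, unlike that of the first probe set, and the difference between the probe sets was not tested. Dkk1, Dkk2 and Dkk4 had no tested probe set.

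Cardiac muscle markers had the same highest group as Dkk3 and Wif1. All 8 were called higher in untreated ApoE-/- against B6 aortas, and 7 were called lower in VitE against untreated ApoE-/- aortas. In VitE against B6 aortas, where Wif1 and 1 Dkk3 probe set were higher, 3 were called higher and 1 lower, and the summed signal intensities differed far less. Macrophage markers also had the group order of Dkk3 and Wif1, with sums over 8 genes of 12535 to 13037 in VitE, 13797 to 13940 in untreated ApoE-/- and 9412 to 9450 in B6 aortas. Of the 7 macrophage markers tested, 5 were called higher and none lower in untreated ApoE-/- against B6 aortas, 4 higher and 1 lower in VitE against B6 aortas, and none higher and 1 lower in VitE against untreated ApoE-/- aortas. The part of these cells in the Dkk3 and Wif1 differences was not tested.

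**Figure D4:**
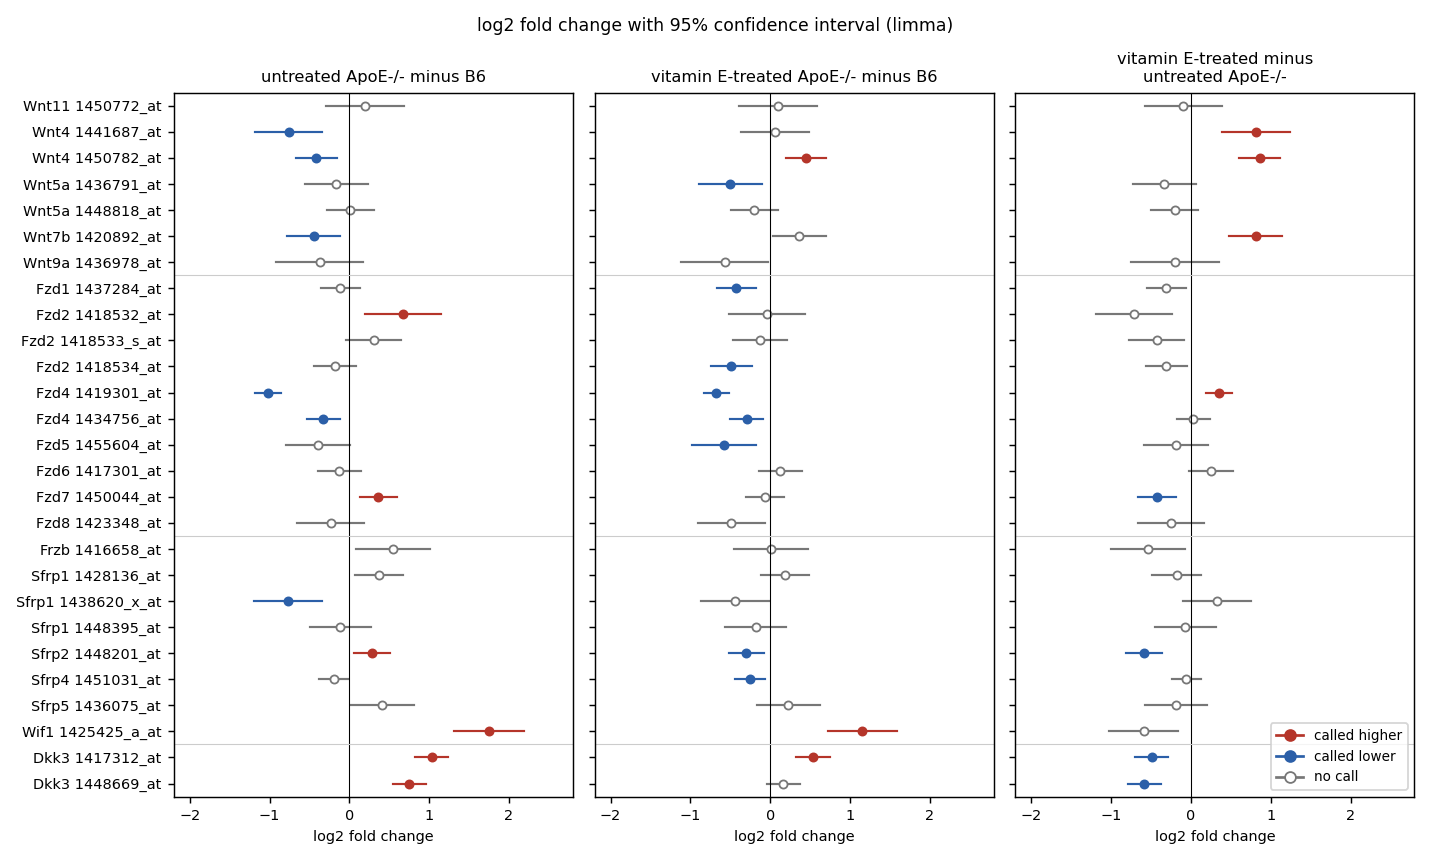
Log2 fold change (x axis) of each of the 27 tested members with its 95% interval from limma, in 1 panel per comparison and with members by role. Wif1 had the largest value (1.75 in untreated ApoE-/- against B6 aortas), and the probe sets of Fzd2 and Sfrp1 lay on both sides of 0 in that panel.

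Other genes of the pathway were described from 6 lists with 1 probe set per gene, and no list was tested as a set. The calls of these genes were not recomputed under other settings or with an array left out. Over all genes tested, 21.2% were called higher and 20.8% lower in untreated ApoE-/- against B6, 21.1% and 21.7% in VitE against B6, and 8.18% and 7.65% in VitE against untreated ApoE-/- aortas. Of 9 tested genes for Wnt secretion and other extracellular modulators, 2 were higher and 2 lower in untreated ApoE-/- against B6 aortas, none was called in VitE against B6 aortas, and 2 were higher and 1 lower in VitE against untreated ApoE-/- aortas. Apcdd1, a membrane inhibitor of Wnt signals in skin and hair follicles, was 1.37-fold higher in VitE than in untreated ApoE-/- aortas (298 ± 18 and 218 ± 5, SD, n = 2 each, limma adjusted p = 0.038). Sost, the co-receptor blocker sclerostin, was 1.34-fold lower (250 ± 12 and 335 ± 22, adjusted p = 0.035). Both had moved the other way in untreated ApoE-/- against B6 aortas, by 1.70-fold lower for Apcdd1 and 1.35-fold higher for Sost. Sdc1, a cell surface proteoglycan of epithelia, had the pattern of Apcdd1, with 1.34-fold higher signal intensity in VitE than in untreated ApoE-/- aortas (adjusted p = 0.023). Igfbp4, an IGF-binding protein that can also bind Wnt receptors, averaged 5162 ± 239 in VitE, 6007 ± 150 in untreated ApoE-/- and 5185 ± 126 in B6 aortas (SD, n = 2 each), and was 1.16-fold higher in untreated ApoE-/- aortas than in B6 (adjusted p = 0.042).

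Of 9 tested co-receptors and surface regulators, 3 were lower and none higher in VitE against untreated ApoE-/- aortas, while 1 was higher and 2 lower in each ApoE-/- group against B6. The 3 were Tspan12, which assists Fzd4 in norrin signalling (1.80-fold lower, limma adjusted p = 0.0496), Lgr6, a receptor for R-spondins (log2 fold change -0.49, adjusted p = 0.014), and Reck, which assists Wnt7 ligands in brain vessels (1.33-fold lower, adjusted p = 0.023). Tspan12 averaged 219 ± 86 in VitE, 379 ± 32 in untreated ApoE-/- and 280 ± 4 in B6 aortas (SD, n = 2 each). Its 2 VitE arrays thus lay far apart, and its call lay near the threshold. Reck averaged 323 ± 12 in VitE, 430 ± 5 in untreated ApoE-/- and 548 ± 48 in B6 aortas (SD, n = 2 each). It was also lower in each ApoE-/- group than in B6, 1.69-fold in VitE (adjusted p = 0.00066) and 1.27-fold in untreated ApoE-/- aortas (adjusted p = 0.018). The co-receptor gene Lrp6 averaged 437 ± 59, 443 ± 3 and 443 ± 10 in the same groups and was not called. Kremen1, which removes co-receptors from the surface together with Dkk1, was 1.54-fold higher in VitE than in B6 aortas (adjusted p = 0.023).

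Of 23 tested cytoplasmic genes, 6 were higher and 6 lower in untreated ApoE-/- against B6, 7 and 5 in VitE against B6, and 1 and none in VitE against untreated ApoE-/- aortas. Btrc, which marks beta-catenin for degradation, was 2.09-fold higher in VitE (limma adjusted p = 0.0014) and 1.91-fold higher in untreated ApoE-/- aortas (adjusted p = 0.0023) than in B6 aortas. Dvl2, which passes the signal on from Frizzled, averaged 103 ± 17 in VitE, 99.0 ± 3.6 in untreated ApoE-/- and 51.1 ± 5.5 in B6 aortas (SD, n = 2 each). It was higher in both comparisons (limma adjusted p = 0.0052 and 0.0062). Its probe set entered the test through its mean of 103 in VitE aortas alone, and its calls were not recomputed without a filter. Dvl1 went the other way. It was 1.53-fold lower in untreated ApoE-/- (limma adjusted p = 0.00027) and 1.41-fold lower in VitE aortas (adjusted p = 0.00072) than in B6. Dact3, which binds Dvl proteins, averaged 190 ± 34 in VitE, 258 ± 1 in untreated ApoE-/- and 154 ± 7 in B6 aortas (SD, n = 2 each). It was 1.67-fold higher in untreated ApoE-/- aortas than in B6 (adjusted p = 0.0056) and did not pass in VitE against B6 (adjusted p = 0.14) or VitE against untreated ApoE-/- aortas (adjusted p = 0.075). Apc, a scaffold of the complex that degrades beta-catenin, was 1.54-fold lower in VitE and 1.66-fold lower in untreated ApoE-/- aortas than in B6, with means of 446 ± 27, 411 ± 4 and 684 ± 9 in VitE, untreated ApoE-/- and B6 aortas (SD, n = 2 each).

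Of 18 tested nuclear partners of beta-catenin, 5 were higher and 3 lower in untreated ApoE-/- against B6, 6 and 2 in VitE against B6, and 1 and none in VitE against untreated ApoE-/- aortas. Lef1, the factor that takes beta-catenin to its targets and is also made by immature T cells, averaged 475 ± 42 in VitE, 350 ± 1 in untreated ApoE-/- and 283 ± 8 in B6 aortas (SD, n = 2 each). It was higher in VitE than in untreated ApoE-/- aortas (log2 fold change 0.44, limma adjusted p = 0.020) and in both ApoE-/- groups than in B6. Immature thymocyte markers had the same order, with sums of 8761 to 9331, 5730 to 6524 and 2634 to 2660. Among the 7 tested, 6 were called higher and 1 lower in each ApoE-/- group against B6. In VitE against untreated ApoE-/- aortas 3 were called higher and none lower. The part of immature thymocytes in the Lef1 difference was not tested. Bcl9, which links beta-catenin to its transcription partners, was 2.86-fold higher in VitE and 2.42-fold higher in untreated ApoE-/- aortas than in B6. Sox17, an endothelial factor that can restrain beta-catenin, was 1.90-fold and 2.21-fold lower. Tcf7l2 was 1.69-fold lower in VitE than in B6 aortas (adjusted p = 0.029).

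Of 25 symbols listed for common beta-catenin target genes, some of them older names of others, 11 were tested. In untreated ApoE-/- against B6 aortas 3 were higher and none lower, in VitE against B6 aortas 3 were higher and 2 lower, and in VitE against untreated ApoE-/- aortas none was called. Axin2, the target most used as a readout of the pathway, averaged 164 ± 16 in VitE, 164 ± 1 in untreated ApoE-/- and 133 ± 4 in B6 aortas (SD, n = 2 each). It did not pass in any comparison, and its log2 fold change of 0.30 in each ApoE-/- group against B6 had adjusted p of 0.10 and 0.098. Jun, a transcription factor of the AP-1 family, was 1.33-fold higher in each ApoE-/- group than in B6. Myc, a regulator of cell growth, was 1.35-fold higher in VitE than in B6 aortas (adjusted p = 0.015), and its difference between the ApoE-/- groups did not pass. Nkd1 and Ccn5 were 1.58-fold lower each in VitE than in B6 aortas. Nkd1 is a feedback inhibitor of Dvl proteins.

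Of 23 tested genes of the planar cell polarity and calcium branch, 5 were higher and 4 lower in untreated ApoE-/- against B6, 4 and 2 in VitE against B6, and none was called in VitE against untreated ApoE-/- aortas. Nfatc3, a calcium-dependent transcription factor, was 1.66-fold higher in VitE (limma adjusted p = 0.00057) and higher by 0.48 on the log2 scale in untreated ApoE-/- aortas (adjusted p = 0.0034) than in B6 aortas. Prkcd, a protein kinase, was 1.59-fold and 1.49-fold higher in these comparisons. Camk2a, a calcium-dependent kinase, was 1.67-fold higher in VitE than in B6 aortas (adjusted p = 0.0097). Celsr2, a cadherin of planar cell polarity, was 1.53-fold lower in untreated ApoE-/- aortas than in B6 (adjusted p = 0.0083). The median log2 fold changes of the 6 lists lay between -0.08 and 0.27 in untreated ApoE-/- against B6, -0.21 and 0.12 in VitE against B6, and -0.20 and 0.11 in VitE against untreated ApoE-/- aortas, beside medians of all genes tested that were within 0.02 of 0. The shares of these lists called lay on either side of those of all genes tested, and nothing particular to a list is read from them.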

How the data were processed

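Total RNA of aortas was hybridized to Affymetrix whole genome mouse gene chips, 6 in all with 2 per group. The authors computed signal intensities with GCOS, scaled them per array to a common target and deposited them on a linear scale. The 2% trimmed mean was 200.001 on every array. Mean signal intensities were 305 to 319. Neither present calls nor the captopril group were used here. Precision is limited by the number of arrays.

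Values under 20 were set to 20 and log2-transformed. All 6 arrays entered a single limma fit (version 3.58.1, R 4.3.3) with group means as coefficients, and variances were moderated along the intensity trend, with 3 residual and 4.46 prior degrees of freedom. The Benjamini-Hochberg method was applied over the 17909 probe sets tested. Means and SDs are of linear signal intensities. The 64 controls were left out. Symbols came from the platform annotation and promoter sequences from RefSeq. Genes of the 6 pathway lists and the cell type lists were each represented by their brightest probe set on average, among those annotated to a single symbol.

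Every member called in at least 1 comparison is given by array, other tested members by group means, and up to 4 called genes per pathway list by the largest absolute log2 fold change. Axin2, Lrp6, Dvl1 and Wnt8b were singled out after their values were seen. The members and lists were chosen with earlier results of these data known. The fit was tested on simulated data. The member results and the counts of calls over all probe sets were recomputed under alternatives. These were quantile normalization or median centring, a floor of 50, no floor or no filter, and a limit on the overall mean. Others were a fit without the trend, the compared groups only, a replicate block, 1 probe set per gene, leaving out each array, and the methods' t-test. Genes of the pathway and cell type lists were not recomputed in this way.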

Additional observations from a re-analysis of the deposited data

How the results depend on the processing

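Of 31 called differences, 8 kept their call under every left-out array and every limma alternative that tested them, 11 under every limma alternative that tested them other than left-out arrays, and none changed its sign. Wif1 was not tested under the limit on the mean of all 6 arrays. The 8 were Wif1, Fzd4 (1419301_at) and both Dkk3 probe sets in untreated ApoE-/- against B6, Wif1, Fzd4 (1419301_at) and Dkk3 (1417312_at) in VitE against B6, and Wnt4 (1450782_at) in VitE against untreated ApoE-/- aortas. Counts of members higher and lower in untreated ApoE-/- against B6, then VitE against B6, then VitE against untreated ApoE-/- aortas are given in this order. They were 6 and 6, 3 and 8, and 4 and 4 as reported. Without a filter they were 4 and 1, 2 and 2, and 2 and 1, where more probe sets enter both the adjustment and the limma pooling of the error. Median centring gave 4 and 6, 2 and 11, and 3 and 7. Over all probe sets tested, the shares higher and lower without a filter were 4.96% and 5.01%, 5.29% and 4.62%, and 1.19% and 0.921%. With median centring they were 17.1% and 22.5%, 13.7% and 29.9%, and 5.27% and 10.3%. A fit of the compared groups only gave 7 and 6, 3 and 4, and 4 and 3, and 1 probe set per gene gave 5 and 3, 2 and 6, and 3 and 3. Over all probe sets tested, the fit of the compared groups called 25.8% and 23.3%, 19.4% and 16.7%, and 5.45% and 4.04%. That with 1 probe set per gene called 21.8% and 21.5%, 22% and 22.7%, and 8.79% and 8.4%. The methods' t-test with their thresholds gave 2 and 1 in the first comparison and 0 in the others on both log2 and linear signal intensities, and 2 and 2 and again 0 after Benjamini-Hochberg adjustment. Over all probe sets, the thresholds on log2 values called 2.02% and 2.41%, 2.08% and 1.24%, and 0.731% and 0.299%. After adjustment, 5.66% and 6.38% were called in the first comparison and 0.184% and 0.19% in the second. With an array left out, 1 group is left with a single array, and the counts of those fits are not given. The shares over all probe sets moved with the settings too, so these counts are not read as results about the family. The cause was not tested beyond what each alternative changes.

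Median centring moved the median log2 fold change of all probe sets by -0.07, -0.15 and -0.08 in these comparisons, and the share of higher among all calls was 43.2%, 31.4% and 33.8% with it, beside 53.1%, 53.3% and 55.0% as reported. It ended the calls of Sfrp2 and Fzd7 in the first comparison, Wnt4 (1450782_at) in the second and Fzd4 (1419301_at) in the third. The correlations of the replicate deviations between groups were 0.05, -0.10 and 0.05. These values gave no sign that replicate numbers pair the samples, but with so few arrays they cannot settle it. With the replicate number as a block the counts were 7 and 5, 3 and 7, and 4 and 4, which is within 1.5 times of those reported. The shares over all probe sets tested were then 20.6% and 17.9%, 21% and 18%, and 6.75% and 5.46%.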
